A study of Homo sapiens with 8 samples.

Results

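The comparison of progesterone alone with vehicle asked what a dose of 10 nM progesterone did to gene expression in U373 cells after 12 h. U373 is an established human astrocytoma line. Its members are 4 of the 8 arrays of the series, 2 arrays labelled progesterone and 2 labelled vehicle, chosen by their treatment labels. Both groups had spent a day in medium with hormone-free serum before treatment, and the labels give the vehicle no name or dose. The other arrays had received the antagonist RU-486 (mifepristone) at 1 µM, alone or together with 10 nM progesterone, for the same 12 h, again with 2 arrays in each group. Those arrays served to estimate the spread between replicates and to give a second progesterone comparison that shares no array with the first. The replicates are labelled as biological, without a statement that they came from separate cultures, so each p-value measures only the spread between these samples. All RNA came from 1 cell line, and total RNA from whole wells does not tell fewer cells of a kind from less RNA per cell.

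Progesterone acts mainly through the progesterone receptor, a nuclear receptor that binds DNA as a pair and shares its recognition sequence with the glucocorticoid and mineralocorticoid receptors. Membrane receptors of the PAQR family and PGRMC proteins also bind or respond to progesterone, and cells can convert the hormone into neurosteroids that act on GABA-A receptors. In astrocytoma lines progesterone is known for effects on growth and migration, and RU-486 blocks the nuclear receptor.

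Each gene was measured by its brightest probe set, which gave 18417 genes on a log2 scale, where 1 unit is a doubling. The array medians lay between 6.93 and 7.02. Olfactory receptor genes, which are hardly transcribed outside the nose, served as a gauge of background: the median level of 341 such genes was 4.64 and their 95th percentile was 6.22, a level that 13343 genes (72.4%) exceeded. Differences below are progesterone minus vehicle in log2 units, ± the standard error of the limma fit, with n = 2 arrays per group. The groups are said not to overlap where both progesterone arrays lay beyond both vehicle arrays, and the gap is the distance between the nearest pair.

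No gene passed an adjusted p of 0.05 (limma, Benjamini-Hochberg over all 18417 genes; 0% called), and the smallest adjusted p was 0.397, for SNORA14A. At an unadjusted p under 0.05, 1129 genes (6.13%) were counted, 678 higher (3.68%) and 451 lower (2.45%). The arrays did not overlap for 3005 genes in the higher direction (16.3%) and for 2906 in the lower direction (15.8%), and these 2 shares are the background for the gene lists below. With each array centred on its median, which moved the median of all genes from 0.0038 to -0.050, those counts were 2097 higher and 4965 lower, and 29.0% of the genes at an unadjusted p under 0.05 were higher, beside 60.1% here. A gap over 0.25 was seen for 101 higher genes (0.548%) and 89 lower genes (0.483%). A mean difference over 1.5-fold was seen for 13 higher genes (0.0706%) and 33 lower genes (0.179%), and 23 of those 33 were small non-coding RNA genes. The call of no gene rests on both progesterone arrays. With replicate 2 left out, 1228 genes passed (914 higher, 314 lower), on the assumption that the lone array varies like the other groups, and with replicate 1 left out none did (smallest limma adjusted p = 0.300).

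The 2 progesterone arrays differed more from each other than the arrays of any other group. Over all genes, replicate 1 minus replicate 2 had a standard deviation of 0.35 with progesterone. The same spread was 0.18 between the vehicle arrays, 0.16 with RU-486 alone and 0.17 with both agents. A total of 2176 genes (11.8%) differed by over 0.5 between the progesterone arrays, against 450 (2.44%) between the vehicle arrays. Relative to the vehicle mean, both progesterone arrays were above for 4842 genes (26.3%) and both below for 4423 (24.0%), while 5700 genes (30.9%) were above in replicate 1 and below in replicate 2, and 3452 (18.7%) the reverse. At a distance of over 0.5 from the vehicle mean, replicate 1 counted 1550 genes (8.42%) and replicate 2 counted 334 (1.81%), but both together only 7 genes above and 16 below. Genes far from vehicle in both progesterone arrays were thus few beside those far from it in 1 array.

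**Figure D1:**
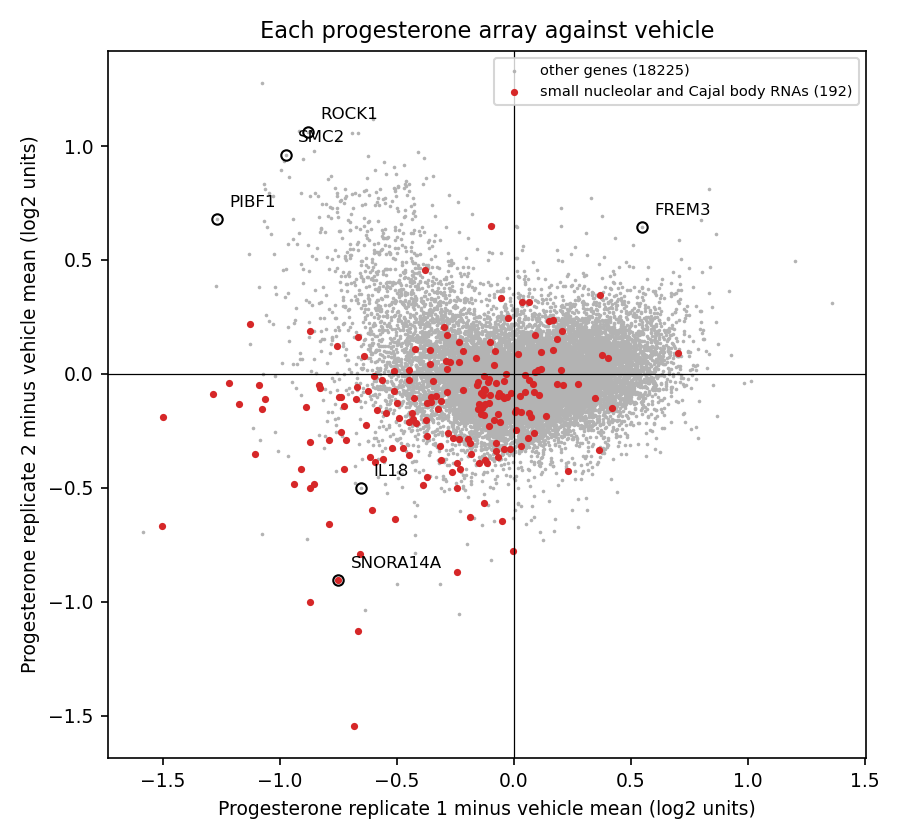
Each point is a gene, plotted by the log2 level in progesterone replicate 1 minus the vehicle mean (horizontal axis) and in replicate 2 minus the vehicle mean (vertical axis). The 192 small nucleolar and Cajal body RNAs (red) spread to the lower left, where both arrays were below vehicle, while SMC2, ROCK1 and PIBF1 lie at the upper left, where the arrays went opposite ways.

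What the 2 progesterone arrays shared in the lower direction was in good part small non-coding RNA, which made up 28 of the 89 genes lower by a gap over 0.25. Small nucleolar RNAs guide chemical changes on ribosomal and spliceosomal RNA. Of 192 such genes, small Cajal body RNAs included, 92 were lower without overlap (47.9%, beside 15.8% of all genes) and 11 were higher (5.73%, beside 16.3%). Their median difference was -0.19 beside 0.0038 for all genes, and it was -0.22 in progesterone replicate 1 and -0.12 in replicate 2. At an unadjusted limma p under 0.05, 43 were lower and 1 was higher. Among the 122 of them above the olfactory 95th percentile the median was -0.24, with 71 lower and 5 higher without overlap. Box C/D RNAs outside the SNORD115 and SNORD116 clusters, which guide ribose methylation, had a median of -0.27, with 36 of 75 lower and 2 higher. Box H/ACA RNAs, which guide pseudouridylation, had a median of -0.14, with 27 of 61 lower and 5 higher. Of the small Cajal body RNAs, which act on spliceosomal RNA, 8 of 16 were lower and 2 higher.

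SNORA14A, a box H/ACA RNA, had the smallest p of all genes. Its levels were 10.00 and 10.02 in the vehicle arrays and 9.26 and 9.10 in the progesterone arrays, and both progesterone values lay below both vehicle values. The difference was -0.83 ± 0.08 (limma, unadjusted p = 2.16e-05, adjusted p = 0.397). Its near relative SNORA14B read 7.30 and 7.26 with vehicle and 6.68 in both progesterone arrays, a difference of -0.60 ± 0.09. SNORA41 read 6.59 and 6.27 with vehicle and 5.78 and 5.64 with progesterone, a difference of -0.72 ± 0.15, and SNORA28 differed by -0.67 ± 0.14. Probe sets of such near-identical RNAs may share signal, so their values are not independent of one another.

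The SNORD116 copies, a tandem array of box C/D RNAs from the imprinted Prader-Willi region, had the lowest median of the small RNA families measured. Of 20 copies measured, 17 were lower without overlap and none was higher, with a median of -0.43. The median was -0.62 in progesterone replicate 1 and -0.23 in replicate 2. SNORD116-25 read 7.64 and 7.42 with vehicle and 6.66 and 6.53 with progesterone, a difference of -0.94 ± 0.26. The 20 SNORD115 copies of the same region, whose median level of 2.76 is within background, had a median difference of -0.021. The copies are near-identical in sequence, so their probe sets may share signal, and the 17 do not count as 17 separate observations.

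Other short non-coding RNAs were also lower. Of 23 spliceosomal and other small RNA genes, 14 were lower without overlap (60.9%) and none was higher, with a median of -0.20. RNU5D-1, a copy of the U5 RNA that aligns exons in the spliceosome, read 9.72 and 9.47 with vehicle and 8.96 and 8.56 with progesterone, a difference of -0.83 ± 0.26. RNU4-2, a U4 RNA, differed by -0.41 ± 0.11. VTRNA1-1, a vault RNA, had the lowest difference of any gene: 7.50 and 7.54 with vehicle and 5.93 and 6.82 with progesterone, or -1.14 ± 0.28 (limma, adjusted p = 0.741). The protein genes of the splicing machinery showed no such shift shared by both arrays. Of 30 splicing factors, 2 were lower and 1 higher without overlap, with a median of -0.029. The arrays went opposite ways, with medians of -0.13 in replicate 1 and 0.052 in replicate 2.

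Many of these small RNAs lie within other genes, and the hosts differed by less on the median. A host here is a protein-coding or long non-coding gene whose span covers the small RNA. Strand was not compared, so a host may lie on the opposite strand. Of the 192, 98 lay within another measured gene in the RefSeq table and 96 within only 1, in 74 distinct hosts. The median difference was -0.18 for the small RNAs and -0.049 for the hosts. Of 45 lower small RNAs with 1 host, 14 hosts were also lower without overlap, 31 hosts overlapped and none was higher. The 14 are 31.1% of the 45, and over all 74 hosts 24 were lower (32.4%) and 1 was higher (1.35%), beside 15.8% and 16.3% of all genes. The host of SNORA14A is POR, the reductase that feeds electrons to cytochrome P450 enzymes. POR read 10.65 and 10.54 with vehicle and 10.66 and 10.58 with progesterone, a difference of 0.026 ± 0.081. TOMM20, a mitochondrial import receptor and host of SNORA14B, differed by 0.032 ± 0.086. SNORD82 read 6.49 and 6.32 with vehicle and 5.47 and 5.92 with progesterone, while its host NCL, which encodes nucleolin, differed by -0.0060 ± 0.0870. SNORA20 differed by -0.49 and its host TCP1, a chaperonin subunit, by -0.011. These last 2 pairs were chosen after their values were seen.

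**Figure D2:**
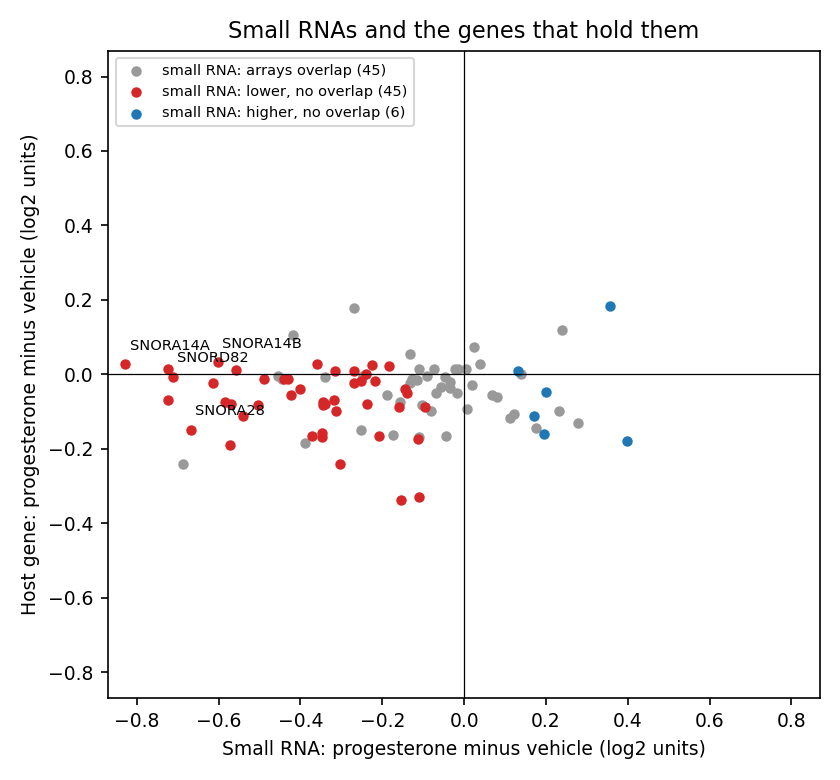
Each of the 96 points is a small nucleolar or Cajal body RNA that lies within 1 measured host gene, with its own progesterone minus vehicle difference on the horizontal axis and that of its host on the vertical axis, in log2 units. The 45 RNAs lower without overlap (red) reach -0.83, while their hosts lie between -0.34 and 0.032, and 3 of these RNAs have a host with a lower difference than their own.

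Among protein-coding genes lower in both arrays, several act in immune signalling. IL18, an inflammasome cytokine, read 9.65 and 9.34 with vehicle and 8.84 and 8.99 with progesterone, a difference of -0.58 ± 0.12. CASP4, an inflammatory caspase that senses cytosolic lipopolysaccharide, read 8.28 and 8.39 with vehicle and 7.93 and 7.998 with progesterone, a difference of -0.37 ± 0.08. IL7R, a chain of the interleukin-7 receptor, read 8.59 and 8.47 against 8.05 and 8.09, a difference of -0.46 ± 0.13. For these 3 genes the vehicle arrays were both above the progesterone arrays, and all 8 arrays were above the background level of 6.22. IL6 read 7.23 and 7.21 with vehicle and 6.91 and 6.83 with progesterone, a difference of -0.35 ± 0.12. STEEP1, which moves the innate immune adaptor STING out of the endoplasmic reticulum, differed by -0.44 ± 0.09. The wider list was not one-sided: of 30 NF-kappaB targets and cytokines 5 were lower and 4 higher without overlap, with a median of -0.024. None of these 5 genes passed the test (limma, adjusted p = 0.741 for each).

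Other lower genes have varied roles. LGR5, the R-spondin receptor that marks stem cells of several epithelia and strengthens Wnt signalling, read 9.47 and 9.54 with vehicle and 9.01 and 9.05 with progesterone, a difference of -0.48 ± 0.09. Of 30 Wnt targets and regulators, 3 were lower and 8 higher without overlap, with a median of 0.013. FABP4, a fatty acid carrier, read 7.57 and 7.01 with vehicle and 6.21 and 6.59 with progesterone, a difference of -0.89 ± 0.21. TIMM23, a channel of the mitochondrial inner membrane, read 7.05 in both vehicle arrays and 6.37 and 6.57 with progesterone, a difference of -0.58 ± 0.11. TIMM23 has a near-identical copy in the genome, so its value is uncertain. MMADHC, which routes vitamin B12 to its enzymes, differed by -0.44 ± 0.10 and GLRB, the glycine receptor beta subunit, by -0.45 ± 0.10.

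The higher genes were mostly dim. Of the 101 genes higher by a gap over 0.25, 20 lay above the olfactory 95th percentile and the median level was 5.39, whereas 72 of the 89 lower genes lay above it and their median level was 7.36. Olfactory receptor genes themselves were higher without overlap in 94 of 341 cases (27.6%) and lower in 23 (6.74%). Over all 5074 genes at or below a level of 6.22, 28.0% were higher without overlap and 5.97% lower. Over the 13343 genes above it, 11.9% were higher and 19.5% lower. The dim genes lay above vehicle mainly in replicate 1, with a median of 0.19 beside 0.013 in replicate 2. A count of higher genes among dim members is therefore read against 28.0%, not 16.3%.

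Of the higher genes above background, SMIM24, a small membrane protein, read 7.03 and 7.08 with vehicle and 7.59 and 7.42 with progesterone, a difference of 0.45 ± 0.10. GOT1L1, a relative of the aspartate aminotransferases, read 6.38 and 6.39 with vehicle and 7.10 and 6.75 with progesterone, a difference of 0.54 ± 0.12. Both genes were above 6.22 in all 8 arrays. MST1, the hepatocyte growth factor-like ligand of the receptor RON, lay below 6.22 with vehicle and just above it with progesterone. It read 5.83 and 5.86 with vehicle and 6.27 and 6.30 with progesterone, a difference of 0.44 ± 0.09. Below background, CCL4, a chemokine, read 3.64 and 3.37 with vehicle and 4.34 and 4.31 with progesterone, a difference of 0.82 ± 0.27. FREM3, an extracellular matrix protein, differed by 0.60 ± 0.09, PNPLA4, a lipid hydrolase, by 0.63 ± 0.12, CYP2B6, a drug-metabolising cytochrome P450, by 0.56 ± 0.18 and ANKRD18B by 0.74 ± 0.16. None passed the test (limma, adjusted p = 0.741 for each).

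**Figure D3:**
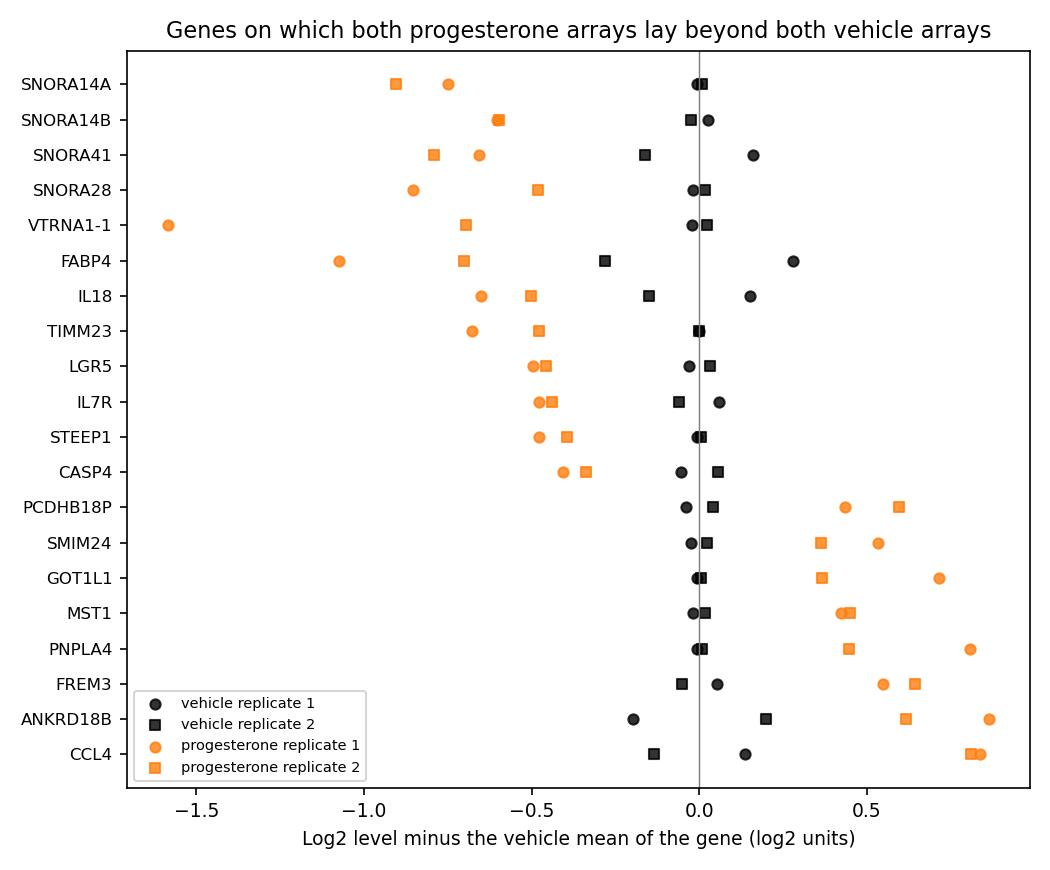
Log2 level of 20 genes in the 2 vehicle arrays (black) and the 2 progesterone arrays (orange), each minus the vehicle mean of that gene, with circles for replicate 1 and squares for replicate 2. Both progesterone arrays lie on the same side of both vehicle arrays for every gene drawn, since the genes were chosen for that, and VTRNA1-1 and FABP4 show the widest spread between progesterone arrays.

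Clustered protocadherins, cell-surface proteins that give single neurons their identity, were more often higher than lower. Of 31 members, 10 were higher without overlap (32.3%, beside 16.3% of all genes) and 1 was lower. The median was 0.10, made of 0.062 in replicate 1 and 0.20 in replicate 2, so that replicate 2 lay higher here. The median was 0.048 after quantile normalization and 0.046 after median centring. PCDHB18P, a pseudogene of the beta cluster, read 6.44 and 6.52 with vehicle and 6.91 and 7.07 with progesterone, a difference of 0.51 ± 0.09. PCDHA11 differed by 0.49 ± 0.08 but was below 6.22 in all arrays. PCDHA13 read 7.23 and 7.18 with vehicle and 7.74 and 7.46 with progesterone, a difference of 0.39 ± 0.11, and PCDHA3 differed by 0.38 ± 0.11. Genes of the alpha cluster share their last exons, so these values are not independent.

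The microRNA gene MIR106B was the member of a cluster whose genes all lay higher in both arrays. MicroRNAs silence messenger RNAs that pair with their seed. MIR106B read 6.20 and 6.26 with vehicle and 6.67 and 6.58 with progesterone, a difference of 0.39 ± 0.09 (limma, adjusted p = 0.741). Its neighbours in the same intron-borne cluster, MIR93 and MIR25, were looked up after that value was seen. MIR93 read 6.29 and 6.23 with vehicle and 6.56 and 6.35 with progesterone, and MIR25 read 7.96 and 7.92 with vehicle and 8.14 and 8.03 with progesterone. The differences were 0.20 ± 0.10 and 0.15 ± 0.08. The host gene MCM7, a subunit of the replicative helicase, read 12.02 and 11.99 with vehicle and 11.98 in both progesterone arrays. MIR17HG, the host transcript of the paralogous cluster, read 6.44 and 6.35 with vehicle and 6.03 and 5.95 with progesterone, a difference of -0.41 ± 0.10. Other microRNA genes were read as well. MIR192 differed by 0.44 ± 0.12 and MIR100 by -0.40 ± 0.10, each without overlap and below 6.22. MIR194-2, at 0.15 ± 0.14, and MIR106A, at 0.07 ± 0.11, overlapped, so not every gene looked up lay apart from vehicle. Among all 189 microRNA genes 48 were higher without overlap (25.4%) and 16 lower (8.47%), at a median level of 5.19.

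The mature sequences are printed because the MIR106B cluster and MIR17HG encode microRNAs with the same seeds. The 6 microRNA genes inside MIR17HG were not measured on their own, and the value of a host transcript does not stand for them, as MCM7 differed by -0.018 beside its higher microRNA genes. They are RefSeq entries of GRCh38.p14, written 5′ to 3′, with the seed, bases 2 to 8, in capitals. The upper 3 come from the MCM7 cluster and the lower 3 from MIR17HG.
hsa-miR-106b-5p: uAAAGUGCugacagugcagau
hsa-miR-93-5p: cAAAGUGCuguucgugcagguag
hsa-miR-25-3p: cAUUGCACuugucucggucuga
hsa-miR-17-5p: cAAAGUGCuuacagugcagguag
hsa-miR-20a-5p: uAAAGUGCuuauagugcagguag
hsa-miR-92a-3p: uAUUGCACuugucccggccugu
The seed AAAGUGC is shared by the 4 microRNAs of the miR-17 family, and AUUGCAC by miR-25-3p and miR-92a-3p. The probe sets read the gene or its precursor, so the levels above are not those of the mature molecules.

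**Figure D4:**
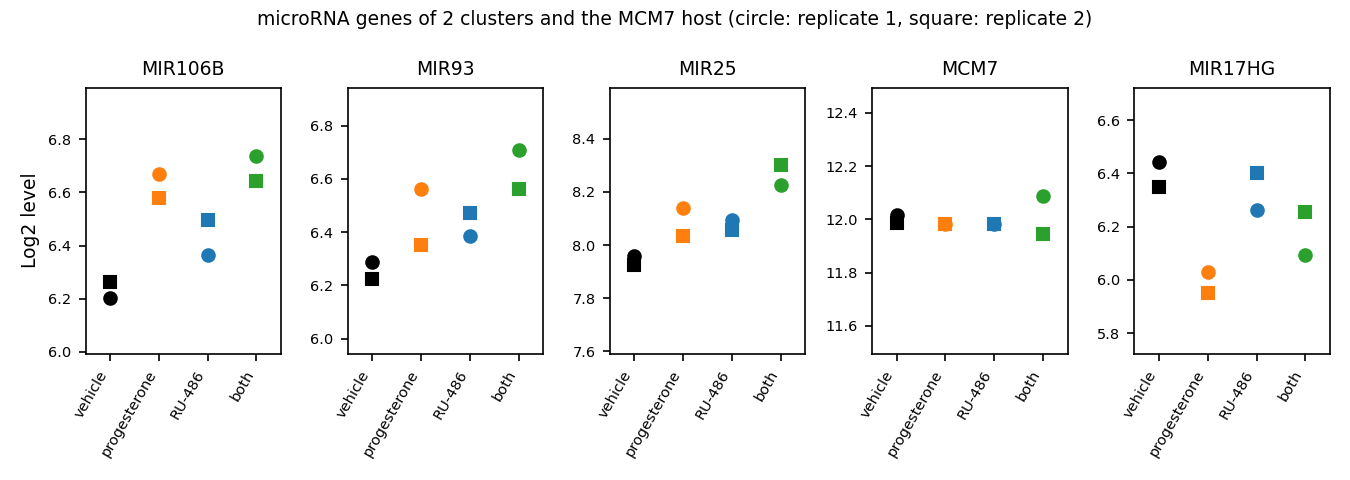
Log2 levels of MIR106B, MIR93, MIR25, their host MCM7 and MIR17HG in all 8 arrays, by treatment, with circles for replicate 1 and squares for replicate 2 and a vertical span of 1 log2 unit in each panel. Progesterone lies above vehicle for the 3 microRNA genes and below it for MIR17HG, and the combination lies above RU-486 for the same 3.

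The genes through which progesterone acts were measured at very unequal levels. PGR, the nuclear progesterone receptor, read 4.59 and 4.44 with vehicle and 4.91 and 4.55 with progesterone, all within the range of olfactory receptor genes. NR3C1, the glucocorticoid receptor, read 10.07 and 10.17 with vehicle and 9.88 and 10.20 with progesterone, a difference of -0.08 ± 0.12. PGRMC2 read 9.56 and 9.65 against 9.50 and 9.74, and the membrane progesterone receptor PAQR8 9.30 and 9.24 against 9.16 and 9.35. For these 4 genes the progesterone and vehicle arrays overlapped. The other membrane receptors PAQR6, PAQR5 and PAQR7 differed by 0.19 ± 0.11, 0.18 ± 0.10 and -0.11 ± 0.19. Of 15 receptors measured, 1 was higher and 1 lower without overlap. Of 13 receptor coregulators and chaperones, 6 were lower (46.2%) and none higher. All 13 had a mean level above 6.22, where 19.5% of genes were lower and 11.9% higher. Their median was -0.047, or -0.0075 after quantile normalization and -0.10 after median centring. FKBP5 and PGRMC1 had no probe set of their own and are not analysed here.

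Known targets of the receptors showed small differences. Of 31 progesterone receptor targets from breast, endometrium and myometrium, 8 were higher without overlap (25.8%) and 4 lower (12.9%). Their median was 0.048, or 0.037 after quantile normalization and -0.0059 after median centring. The 2 arrays disagreed on this list, with medians of 0.14 in replicate 1 and -0.046 in replicate 2. ELF5, an epithelial transcription factor, differed by 0.39 ± 0.11 at a dim level, and BMP2, a growth factor of decidualising endometrium, read 6.34 and 6.29 with vehicle and 6.69 and 6.47 with progesterone. WNT4, a paracrine signal of breast epithelium, differed by 0.21 ± 0.10. Of 37 glucocorticoid receptor targets, 5 were higher and 5 lower without overlap (13.5% each). Their median was 0.014, or 0.024 after quantile normalization and -0.039 after median centring. The arrays disagreed here too, with medians of 0.037 in replicate 1 and -0.037 in replicate 2. SCNN1A, a sodium channel subunit, differed by 0.23 ± 0.09 and TAT, a liver aminotransferase, by 0.33 ± 0.13 at a dim level. Of 9 genes linked to progesterone in astrocytoma lines, 1 was higher without overlap and none lower. CCND1, cyclin D1, is on that list and read 10.62 and 10.57 with vehicle and 10.57 and 10.31 with progesterone, a difference of -0.15 ± 0.11.

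Enzymes that make or break down steroids differed in both directions, with 4 of 28 higher and 5 lower without overlap and a median of 0.0014. HSD17B2, which oxidises oestradiol and testosterone, read 5.71 and 5.66 with vehicle and 6.23 and 5.95 with progesterone, a difference of 0.41 ± 0.11. SRD5A2, a 5-alpha reductase, differed by 0.29 ± 0.11 at a dim level. AKR1C3, a ketosteroid reductase with a high level in these cells, read 11.39 and 11.27 with vehicle and 11.22 and 10.96 with progesterone, a difference of -0.24 ± 0.11. Its relative AKR1B10 differed by -0.62 ± 0.20, and its probes may share signal with other family members.

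The promoters of genes set apart by progesterone were searched for the receptor half-site, without a test of the shares. The half-site AGAACA, or TGTTCT on the other strand, was searched in the 250 bases before each RefSeq start on both strands. It occurred in 12.4% of 35116 promoters and in 9.31% of 18929 promoters of protein-coding genes tested. Of 87 promoters of genes with a higher gap over 0.25, 12 held it (13.8%), and of 45 promoters of genes with a lower gap, 5 held it (11.1%). Counted by gene, 11 of 61 higher genes (18.0%) and 4 of 35 lower genes (11.4%) held it in at least 1 promoter. A gene can have several promoters, and the share by gene over all genes tested was not computed. The shares by gene are therefore not comparable with the 12.4% and 9.31% of promoters. The full palindrome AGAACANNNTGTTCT occurred in 1 promoter of all 35116 and in none of these. The promoters of a bright lower gene and a dim higher gene are shown because both lie on the lists of leading genes and hold a half-site, printed in capitals. They are from GRCh38.p14, on the strand of the gene.
MMADHC, chr2:149587776-149588025, minus strand: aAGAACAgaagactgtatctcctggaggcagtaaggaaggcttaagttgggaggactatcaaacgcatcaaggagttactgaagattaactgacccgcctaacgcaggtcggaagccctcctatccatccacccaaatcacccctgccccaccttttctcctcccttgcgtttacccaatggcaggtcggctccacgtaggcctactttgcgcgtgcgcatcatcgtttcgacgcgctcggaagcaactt
IL20, chr1:206863315-206863564, plus strand: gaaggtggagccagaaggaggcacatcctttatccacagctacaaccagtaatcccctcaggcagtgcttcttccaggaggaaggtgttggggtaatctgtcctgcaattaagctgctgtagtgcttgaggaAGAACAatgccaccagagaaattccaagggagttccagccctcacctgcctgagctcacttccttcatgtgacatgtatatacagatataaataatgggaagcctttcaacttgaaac
The IL20 gene read 4.10 and 4.08 with vehicle and 4.48 and 4.47 with progesterone, a difference of 0.39 ± 0.10. A match is a description of the letters and not a site of binding.

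Genes of protein synthesis were lower by small amounts in both arrays. Of 64 cytosolic ribosomal proteins, 27 were lower without overlap (42.2%, beside 15.8%) and none was higher, with a median of -0.075 in both replicate 1 and replicate 2. RPS7 read 11.55 and 11.54 with vehicle and 11.31 and 11.27 with progesterone, a difference of -0.25 ± 0.09. RPL26L1 differed by -0.31 ± 0.08 and RPL22 by -0.35 ± 0.10. Of 86 mitochondrial ribosomal proteins and aminoacyl-tRNA synthetases, 32 were lower (37.2%) and none higher, with a median of -0.082. MRPL15 read 10.52 and 10.67 against 10.21 and 10.30. Of 77 subunits of oxidative phosphorylation, 25 were lower (32.5%) and 4 higher, among them NDUFB6 of complex I at -0.38 ± 0.12 and ATP5F1C of the ATP synthase at -0.22 ± 0.08. The median of this last list was -0.035, or 0.0029 after quantile normalization and -0.088 after median centring. Quantile normalization brought the cytosolic ribosomal list from -0.071 to -0.042 and the mitochondrial list from -0.082 to -0.034. Median centring brought them to -0.12 and -0.14. Bright genes as a class leaned the same way: of the 1842 brightest genes, 23.8% were lower and 6.51% higher, and the share of this lean in the list counts was not tested.

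Stress and sterol genes were lower too. All 19 sterol and 35 stress genes measured had a mean level above 6.22, where 19.5% of genes were lower and 11.9% higher without overlap. Of 19 genes of cholesterol synthesis and uptake, 11 were lower without overlap (57.9%) and 1 was higher, with a median of -0.14, made of -0.045 in replicate 1 and -0.20 in replicate 2. HMGCS1, which makes the precursor of mevalonate, read 10.79 and 10.88 with vehicle and 10.63 in both progesterone arrays, a difference of -0.21 ± 0.10. MSMO1, a sterol methyl oxidase, differed by -0.18 ± 0.08. The one higher member, NPC1L1, is an intestinal sterol transporter, and differed by 0.42 ± 0.10. Of 35 genes of the endoplasmic reticulum stress and amino acid response, 13 were lower (37.1%) and 2 higher, with a median of -0.096. DNAJB9, a chaperone of the endoplasmic reticulum, read 8.75 and 8.82 with vehicle and 8.21 and 8.49 with progesterone, a difference of -0.44 ± 0.11. DDIT3, the stress transcription factor CHOP, differed by -0.36 ± 0.10. SESN2, a stress-induced inhibitor of the growth kinase mTORC1, read 7.68 and 7.64 against 7.29 and 7.36, a difference of -0.33 ± 0.09, and SESN1 differed by -0.32 ± 0.09.

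Cell-cycle and chromatin genes gave a mixed picture. Of 37 genes of the G1/S transition, 14 were lower (37.8%) and 2 higher without overlap, with a median of -0.054, or -0.0078 after quantile normalization and -0.11 after median centring, while of 38 mitotic genes 2 were lower and 1 higher. For the mitotic genes the arrays went opposite ways, with medians of -0.17 in replicate 1 and 0.071 in replicate 2. Of 24 histone genes, 12 were lower and 3 higher, with a median of -0.11. H3C12 differed by -0.52 ± 0.15, H2BC5 by -0.35 ± 0.11, H4C1 by -0.31 ± 0.10 and H4C5 by -0.35 ± 0.12, while H2AC20 was higher by 0.34 ± 0.12. Histone genes are near-identical copies and their probe sets may share signal. Of 20 clock genes, 6 were lower and 5 higher, with differences from -0.24 to 0.29. Among the lower ones, BMAL1 was at -0.23 ± 0.08 and PER2 at -0.22 ± 0.09.

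Of 33 immediate early genes, which respond first to growth signals, 7 were lower (21.2%) and 4 higher. Their median was -0.053, or -0.013 after quantile normalization and -0.11 after median centring. FOS read 8.14 and 8.34 with vehicle and 7.96 and 7.95 with progesterone, a difference of -0.29 ± 0.09. KLF6 differed by -0.22 ± 0.09 and EGR1 by -0.40 ± 0.18. ARC went the other way, with 7.82 and 7.83 with vehicle and 8.35 and 7.90 with progesterone, a difference of 0.30 ± 0.14. Of 38 glioma growth factors and receptors, 6 were lower (15.8%) and 2 higher, with PDGFC at -0.34 ± 0.11 and NRG1 at -0.30 ± 0.12. Of 46 genes of extracellular matrix and invasion, 6 were lower and 6 higher, with MMP3, a matrix metalloproteinase, at -0.38 ± 0.12. The 33 motility genes gave 9 lower (27.3%) and 3 higher, within -0.12 and 0.33. Their median was -0.029, or 0.013 after quantile normalization and -0.082 after median centring.

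Markers of other cell types had lower levels than astrocyte markers, though not all were dim. The median level was 6.69 for 13 epithelial markers, of which 8 lay above 6.22, and 6.10 for 12 endothelial markers, of which 3 did. It was 5.55 for 16 microglia and leukocyte markers and 5.77 for 12 oligodendrocyte markers, beside 9.12 for 23 astrocyte and glioma stem markers. Of 17 neuron markers, 8 lay above 6.22. Without overlap, 6 epithelial markers were higher (46.2%) and none lower, 5 endothelial markers higher (41.7%) and 3 lower (25%), 6 neuron markers higher (35.3%) and none lower, 5 microglia and leukocyte markers higher (31.2%) and 1 lower, and 3 oligodendrocyte markers higher (25%) and none lower. TYROBP, a leukocyte adaptor, read 7.38 and 7.46 with vehicle and 7.97 and 7.63 with progesterone, and the T-cell chain CD3E read 5.18 and 5.09 against 5.59 and 5.27. These shares stand beside 28.0% higher for genes at or below 6.22 and 11.9% for genes above it, and their part in the other results was not tested. The astrocyte markers gave 6 higher (26.1%) and 2 lower.

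**Figure D5:**
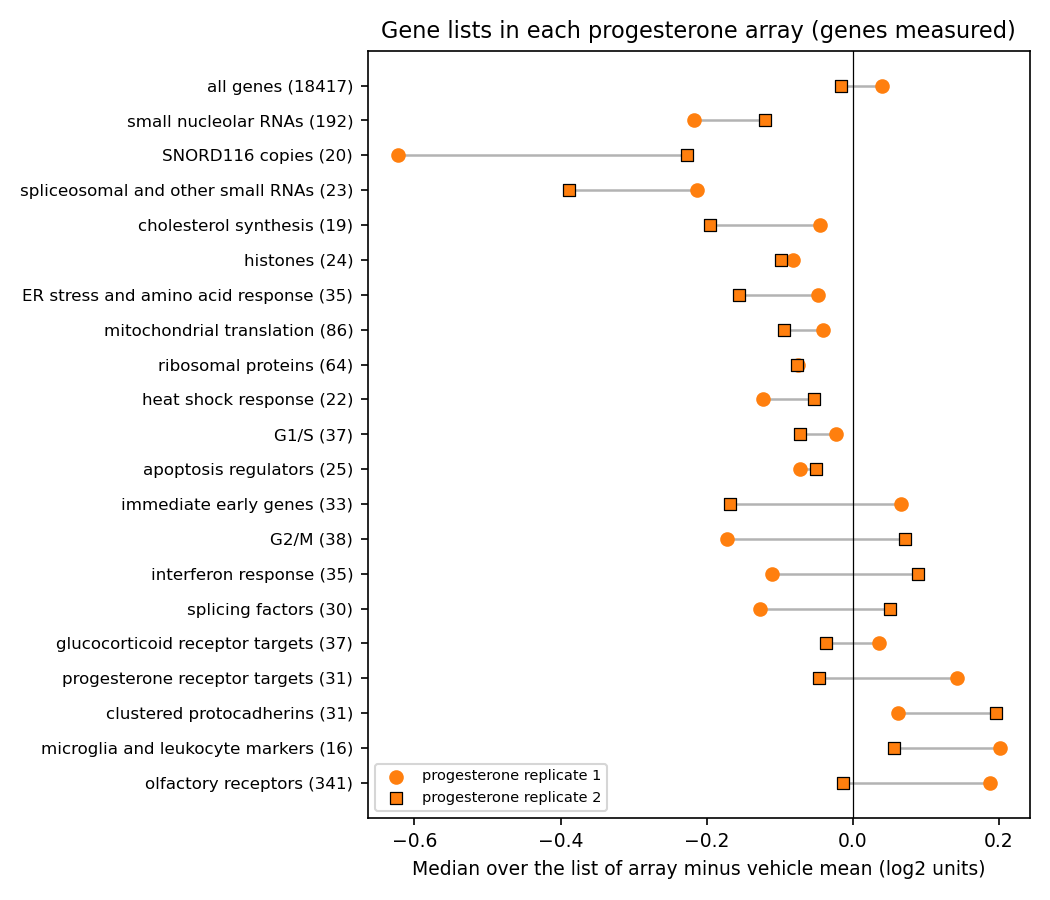
Median over each gene list of the log2 level in progesterone replicate 1 (circles) and replicate 2 (squares), each minus the vehicle mean, with the number of genes measured in brackets. Small nucleolar, SNORD116 and spliceosomal RNAs lie below 0 in both arrays, and ribosomal proteins at -0.075 in each. Mitotic, interferon, splicing and immediate early genes have arrays on opposite sides of 0. So do progesterone and glucocorticoid receptor targets, olfactory receptors and all genes.

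The genes on which the progesterone arrays disagreed most were long genes, lower in replicate 1 and higher in replicate 2. Of 329 genes differing by over 1 between the arrays, 322 were higher in replicate 2. Their median genomic length in the RefSeq table was 64.0 kb, beside 24.5 kb for all genes. In 96.9% of them vehicle replicate 1 was also below vehicle replicate 2, beside 46.4% of all genes. Replicate 1 minus replicate 2 had a median over the 322 of -0.27 with RU-486 alone and -0.099 with both agents. For all genes those medians were -0.018 and 0.013. SMC2, a condensin subunit, read 9.06 and 9.76 with vehicle and 8.43 and 10.37 with progesterone, so that the mean difference was -0.01 ± 0.56. ROCK1, a kinase of the contractile cytoskeleton, read 7.47 and 8.12 with vehicle and 6.92 and 8.86 with progesterone. SAMD9, an antiviral protein, read 6.89 and 7.50 against 6.12 and 8.47. PIBF1, a progesterone-induced blocking factor known from lymphocytes, read 6.76 and 7.40 with vehicle and 5.81 and 7.76 with progesterone, a difference of -0.30 ± 0.56. For these 4 genes replicate 1 lay below both vehicle arrays and replicate 2 above both. In the opposite sense, 882 genes were over 0.5 higher in replicate 1, with a median length of 10.3 kb and a median level of 6.24. The part of gene length in these differences was not tested.

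With RU-486 present, progesterone could be compared on separate arrays, the combination against RU-486 alone. No gene passed there (0% called; smallest limma adjusted p = 0.769, 874 genes or 4.75% at an unadjusted p under 0.05). The arrays did not overlap for 6138 genes in the higher direction (33.3%) and for 3158 in the lower direction (17.1%). The test of whether the progesterone effect differed with and without RU-486 called no gene either (0% called; smallest limma adjusted p = 0.828, 972 genes or 5.28% at an unadjusted p under 0.05). Of the 3005 genes higher with progesterone alone, 854 (28.4%) were also higher in the combination and 297 (9.88%) were lower. Of the 2906 lower genes, 349 (12.0%) were also lower and 1222 (42.1%) were higher.

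Some small RNAs were lower in both comparisons and others were not. SNORD116 copies had a median difference of -0.23 with RU-486 present and 14 of 20 were lower without overlap, and SNORD116-25 differed by -0.96. The 23 spliceosomal and other small RNA genes had a median of -0.27, with 16 lower and 3 higher without overlap, and RNU5D-1 differed by -1.08. SCARNA1 and SNORA41 differed by -0.82 and -0.63. SNORA14A was lower without overlap here too but differed by only -0.07, with 9.76 and 9.82 in RU-486 and 9.74 and 9.69 in the combination. In contrast, SNORA14B was higher without overlap in the presence of RU-486, by 0.49. Over all 192 small nucleolar RNAs the median was -0.042, with 62 lower and 37 higher. Ribosomal proteins, lower with progesterone alone, had a median of 0.012 with RU-486 present, with 11 lower and 24 higher. The 24 histone genes had a median of -0.11 with progesterone alone and -0.12 with RU-486 present, where 9 were lower and none higher. The 19 sterol genes had a median of 0.10, with 3 lower and 8 higher. The 35 stress genes had a median of 0.079, with 2 lower and 13 higher. The median over all genes was 0.037, with 17.1% lower and 33.3% higher. The MIR106B cluster was higher on both occasions: the combination differences were 0.26 for MIR106B, 0.21 for MIR93 and 0.19 for MIR25, without overlap for each. SESN2 differed by 0.32, with 7.85 and 7.92 in RU-486 and 8.30 and 8.10 in the combination, the reverse of progesterone alone. VTRNA1-1 and BMAL1, lower with progesterone alone, were also higher here without overlap, by 0.34 and 0.24. For VTRNA1-1 the gap was only 0.0065. The vault RNAs VTRNA1-2 and VTRNA1-3 did not reverse. They differed by -0.64 and -0.46 with progesterone alone and by -0.79 and -0.47 with RU-486 present, without overlap each time.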

How the data were processed

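Gene expression was measured in U373 cells on 8 Affymetrix Human Gene 1.0 ST arrays, of which the 2 progesterone and 2 vehicle arrays form this comparison. The authors deposited log2 values, normalized by RMA with the oligo package per the submitters' processing notes, which also name limma. Versions and genome build are not given in the sources used here. Since RMA draws all arrays to one distribution, a shift of all genes would be lost, and raw intensities were not used.

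Of 33297 probe sets, 19460 were paired with 1 gene symbol, 1754 with several and 12083 with none, and 19429 of the symbol-paired ones matched the RefSeq table. The probe set with the highest mean stood for each gene. limma 3.58.1 (R 4.3.3) fitted the 4 group means on all 8 arrays, with lmFit and eBayes and Benjamini-Hochberg adjustment at 0.05. Progesterone arrays varied more than the others, so the shared spread may make their standard errors too small. The 13837 other probe sets gave 0 calls (733 at an unadjusted p under 0.05).

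Genes were named by rule: the 15 largest gaps and 10 smallest p-values each way, the largest differences between the progesterone arrays, up to 4 members of each list, and steroid receptors; exceptions are stated. Lists are described by counts and medians, with no test. Comparisons, members and lists were chosen with earlier results of these data known. The fit was tested on simulated data. Alternatives were other scalings, filters on dim genes, other probe set choices, array weights, a replicate block and leaving out each array.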

Additional observations from a re-analysis of the deposited data

How the results depend on the processing

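No gene passed the test of progesterone against vehicle under any of the 18 alternatives except 1. Leaving out each array in turn gave 0 to 1228 genes, the upper end without progesterone replicate 2, where 28 small nucleolar RNAs were called lower and 1 higher. The number of genes whose progesterone and vehicle arrays did not overlap was 5911 to 15642 with 1 array left out (10324 and 9464 without vehicle replicate 1 or 2, 13215 without progesterone replicate 1), since fewer arrays have to be separate, and 10726 over all probe sets. Over all probe sets 5233 differed by over 0.5 between the progesterone arrays. Unadjusted p-values under 0.05 ranged from 456 genes with the 4 arrays alone and 516 with array weights, which gave each progesterone array 0.343, to 5564 without progesterone replicate 2. The labels do not say that replicate numbers pair the arrays. With the replicate number as a block 0 genes passed and 1629 had an unadjusted p under 0.05, and replicate differences correlated across genes at 0.51 between progesterone and vehicle and at 0.20 to 0.32 between other groups.

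Of 1549 alternative values for the genes named, 1498 kept direction and side of the threshold, 32 passed it (all without progesterone replicate 2) and 19 reversed. With 1 array left out, differences ranged from -1.27 to 0.68 for PIBF1, -0.97 to 0.96 for SMC2, -0.88 to 1.06 for ROCK1, -1.07 to 1.28 for SAMD9, -0.24 to 0.077 for NR3C1, -0.11 to 0.13 for PGRMC2, -0.31 to 0.088 for PAQR7 and -0.11 to 0.077 for PAQR8. Quantile normalization gave 0.018 for MCM7, 0.036 for PAQR8 and 0.037 for SMC2, and median centring gave -0.043 for PGRMC2. Of 846 alternative medians of gene lists and of all genes, 782 moved by less than the spread between replicates and 64 by more. The median of the small nucleolar RNAs was -0.18 and -0.24 under these 2 scalings.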
